A study of Mus musculus with 12 samples.

Results

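Hep3B tumors from mice given the FGFR4 inhibitor H3B-6527 together with lenvatinib were compared with tumors from mice given vehicle. The 6 tumors, 3 in each group, were chosen by their treatment labels from the 12 in the series, and all genes were members: 15836 of the 36292 gene symbols listed had enough counts to be tested. Hep3B is a human hepatocellular carcinoma cell line. It was grown under the skin of the right flank in female BALB/c nu/nu mice, which were injected at about 8 weeks of age and lack T cells but keep innate immune cells. Dosing was oral, once a day, and began when tumors averaged about 500 mm3. The combination group received H3B-6527 at 300 mg/kg and lenvatinib at 10 mg/kg, and the vehicle group received the carrier alone. Groups of 3 tumors given either agent by itself at the same dose supplied values for a side-by-side reading. All tumors were taken 8 h after dose 4, and RNA came from fragments of 50 to 100 mg.

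FGFR4 is the FGF receptor of hepatocytes. With its co-receptor beta-klotho (KLB) it binds FGF19, a hormone released from the gut after a meal, and signals through FRS2, RAS and the ERK kinases. In the liver this signal represses CYP7A1, which sets the rate at which bile acids are made, and ERK activity in turn switches on its own inhibitors, the sprouty, SPRED and DUSP proteins, which serve as a transcriptional readout of the pathway. H3B-6527 binds FGFR4 covalently and is selective for it among the FGF receptors. Lenvatinib inhibits VEGF receptors, FGF receptors, PDGFRA, KIT and RET, and part of its known action in liver cancer falls on blood vessels.

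Library totals of the 6 tumors ran from 31.0 to 40.9 M (mega) counts, so 3 counts, the floor used here, corresponded to at most 0.104 CPM (counts per M of the scaled library). Levels are given in CPM and changes as log2 fold changes, combination minus vehicle, with the standard error (SE) of the fit. The first principal component held 64.8% of the variance and placed the vehicle tumors at -61.3 to -50.8 and the combination tumors at 34.4 to 55.4. Combination tumor 3 lay closest to vehicle: it had the combination value nearest to vehicle for 64.5% of the 2720 genes that changed at least 2-fold. Without it, 3684 genes were higher and 3761 lower, against 3924 and 4006 with all 6 tumors. Of 9 hepatoma markers, 7 were higher with the combination, and their sum went from 81800 to 89200 CPM over vehicle tumors to 142000 to 157000 CPM. Markers of host cells were looked up under human symbols, and some were far from 0. Of 11 endothelial markers 10 were under 1 CPM, and they summed to 2.26 to 2.93 CPM with vehicle and 2.16 to 2.75 CPM with the combination. Of the 2 tested, CLDN5 was lower, with means of 0.369 and 0.0749 CPM, near the floor. The genes DCN and LUM (fibroblasts), ADIPOQ and LEP (adipocytes) and KRT5 and KRT14 (keratinocytes) had 11, 18, 7, 4, 3 and 4 counts over all 12 libraries. The fibroblast sum nevertheless went from a range of 73.0 to 82.7 CPM to one of 26.7 to 29.3 CPM, with 3 of 4 tested markers lower and PDGFRA the highest in CPM. The adipocyte sum was 5.86 to 7.59 CPM with vehicle and 37.1 to 54.6 CPM with the combination, with PLIN1 the marker that rose. The keratinocyte sum was 1180 to 1190 CPM and 532 to 609 CPM, almost all of it DSP. Pericyte markers summed to 68.5 to 78.2 CPM against 46.4 to 50.5 CPM, with 3 of 5 tested lower and PDGFRB the highest in CPM. RGS5 was the 1 pericyte marker that rose, with means of 0.327 and 0.689 CPM. Macrophage markers summed to 196 to 214 CPM against 163 to 198 CPM, with 4 of 9 higher and 1 lower. The lower member was LYZ, which had mean levels of 107 CPM with vehicle and 9.46 CPM with the combination, while among the higher members CD68 went from 93.0 to 158 CPM and TYROBP from 0.28 to 3.50 CPM. Skeletal muscle markers summed to 325 to 340 CPM against 382 to 449 CPM, mostly TTN, and erythroid markers stayed under 2 CPM. Of 4 tested muscle markers MYH4 was higher and CKM lower. Which cells, host or tumor, supplied the marker counts was not tested, nor whether cells of these types had a part in the results. In bulk tumors fewer cells of a type and less RNA per cell cannot be told apart.

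The combination was followed by opposite movements of liver function genes and growth genes. Among tested genes, 34 of 44 of coagulation and complement, 13 of 16 of bile acid synthesis, 24 of 26 of fatty acid oxidation and 29 of 44 of amino acid breakdown were higher. By contrast, 19 of 20 output genes of FGFR-ERK signalling, 38 of 40 of ribosome assembly, 18 of 25 of nucleotide synthesis and 39 of 40 of mitosis were lower. Against H3B-6527 alone, the medians were 0.1 for coagulation and complement, 0.005 for bile acid synthesis and 0.065 for fatty acid oxidation. For amino acid breakdown, ERK output, ribosome assembly, nucleotide synthesis and mitosis they were 0.078, 0.641, -0.032, -0.135 and -0.254. Of these members only AMDHD1, of amino acid breakdown, was called, of 2 genes in all, which does not show equality. Against vehicle, over all genes, 3924 (24.8%) were higher and 4006 (25.3%) lower at an adjusted p under 0.05. A change of at least 2-fold was reached by 1521 genes upward (9.6%) and 1199 downward (7.57%), and of at least 4-fold by 371 and 295. The median log2 fold change of all genes was 0.01. The 3 tumors of a group lay all above the 3 of the other for 64.6% of genes, with the combination above in 31.8% and below in 32.8%. Because 50.1% of all genes passed the test, the count and median of each list below are to be read against these shares and that median. Scaling to library totals instead of TMM moved the median of all genes to -0.14 and the counts to 2923 higher and 5339 lower.

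**Figure D1:**
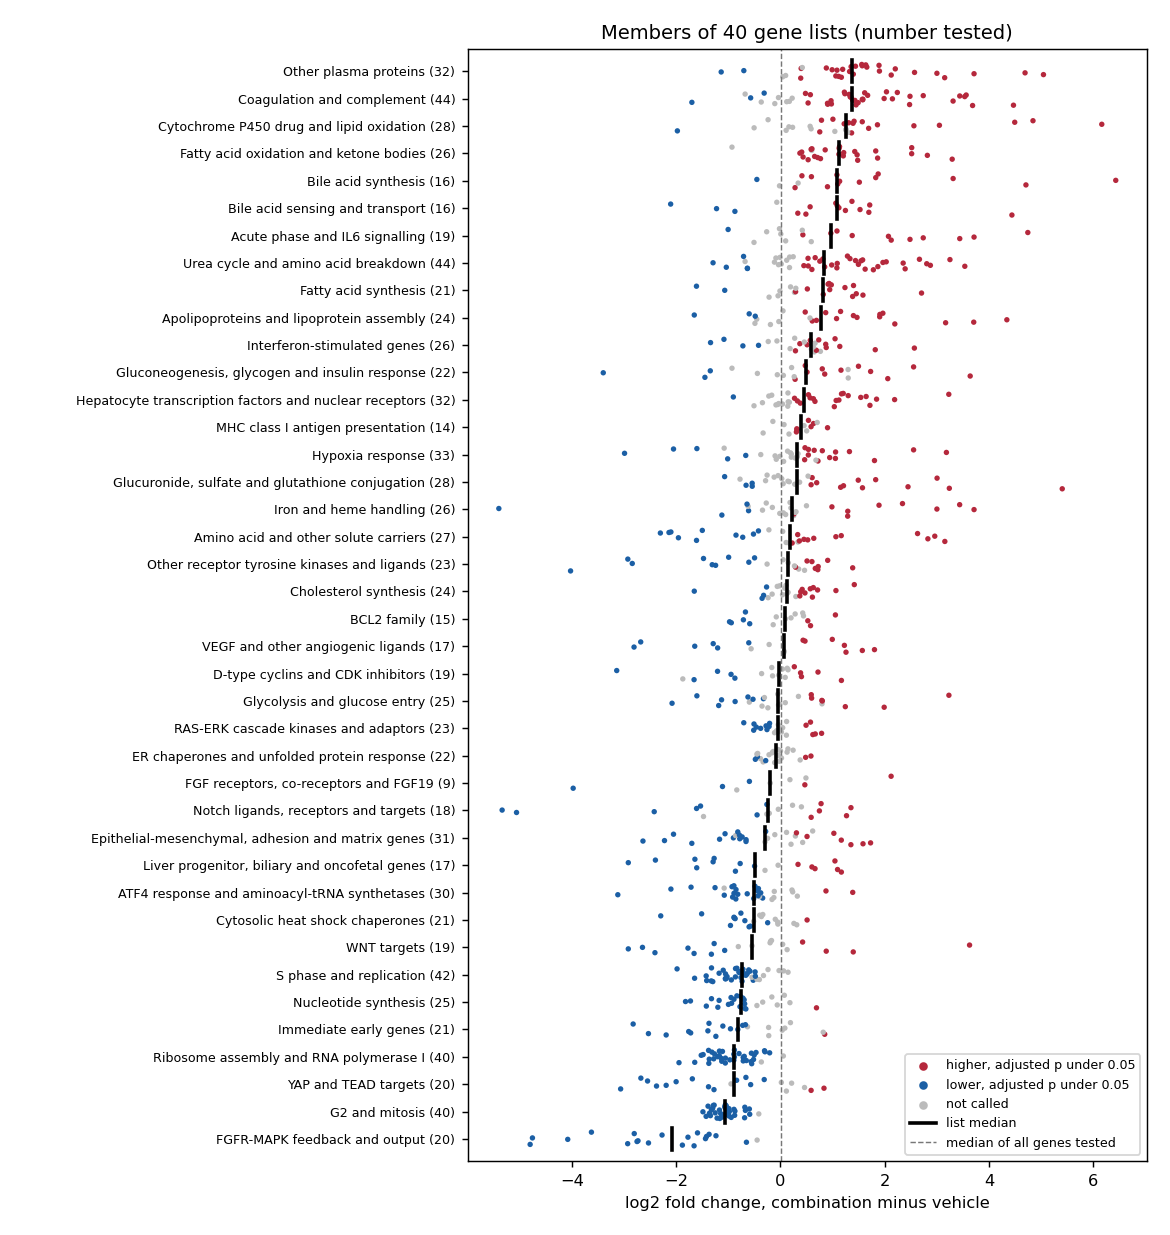
Log2 fold changes (x axis, combination minus vehicle) of the tested members of 40 gene lists (rows, number tested in parentheses, sorted by median). Each point is 1 gene, red where higher and blue where lower at an adjusted p under 0.05, grey otherwise; black ticks are list medians and the dashed line is the median of all genes. Plasma proteins and coagulation factors sit at the top with medians of 1.38 and 1.37, and FGFR-MAPK output at the bottom with a median of -2.08.

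The receptors came first. Of 9 tested FGF receptor genes and partners, 2 were higher and 3 lower, median -0.20. FGFR4, the target of H3B-6527, stood at 158, 137 and 154 CPM with vehicle and 125, 132 and 135 CPM with the combination. All combination tumors lay below all vehicle tumors by a small margin, and the change of -0.20 ± 0.10 did not pass the test (adjusted p = 0.125). KLB, its co-receptor, measured 44.5, 44.3 and 48.2 CPM in vehicle tumors against 209.7, 215 and 171 CPM in combination tumors, a log2 fold change of 2.12 ± 0.20 with no overlap. FGFR1 was 67.9, 65.9 and 72.3 CPM in the vehicle tumors and 4.46, 3.35 and 5.21 CPM in the combination tumors. It dropped to a low level in all combination tumors, with a log2 fold change of -3.97 ± 0.34, among the 15 largest falls named by size. FGFR2 and the decoy receptor FGFRL1 also fell (-1.11 and -0.59), and FGFR3 rose (0.47 ± 0.11). FGF19, the ligand, was low: 3.66, 3.41 and 3.39 CPM with vehicle against 1.23, 2.07 and 2.51 CPM with the combination. Its combination tumors lay below vehicle, but at -0.84 ± 0.38 the change missed the threshold (adjusted p = 0.0847). The number of lower members was 5 with library totals, with the 2 groups fitted alone and without the H3B-6527 tumors, and FGFR4 and FGF19 were the genes that joined. KL and FGF21 had 4 and 15 counts over the vehicle tumors and 1 and 3 over the combination tumors, too few to test.

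Among the other receptor tyrosine kinases and their ligands, 8 of 23 tested members were higher and 9 lower, median 0.15. PDGFRA, a lenvatinib target, stood at 73.6, 66.4 and 63.99 CPM with vehicle and 22.8, 23.6 and 26.9 CPM with the combination, and its log2 fold change was -1.48 ± 0.10. The 3 combination tumors were close to each other and all far below vehicle. PDGFRA was 25.0, 21.9 and 21.4 CPM with H3B-6527 alone, a difference of 0.10 ± 0.10 that was not called (adjusted p = 0.797). With lenvatinib alone it was 54.2, 54.4 and 65.6 CPM, and the combination lay 1.25 ± 0.10 log2 units below (adjusted p = 1.14e-05). PDGFRB fell less, by 0.50 on the log2 scale, from a range of 41.2 to 47.97 CPM to one of 29.2 to 32.5 CPM. Ligands of the EGF receptor family fell: amphiregulin (AREG) measured 14.8, 12.03 and 18.5 CPM in vehicle tumors against 0.854, 0.829 and 1.07 CPM in combination tumors (-4.02 ± 0.44). Epiregulin (EREG, -1.31) and neuregulin (NRG1, -2.93) were also lower. The hepatocyte growth factor gene HGF was 3.91, 3.34 and 3.78 CPM in the vehicle tumors and 0.443, 0.553 and 0.533 CPM in the combination tumors, a log2 fold change of -2.84 ± 0.33. Several receptors went the other way. EGFR stood at 312, 301 and 297 CPM with vehicle and 489, 495 and 461 CPM with the combination (0.67 ± 0.10), and EPHA1 (1.39), MERTK (0.91), ERBB2 (0.72) and DDR1 (0.72) rose as well, although the ERBB2 call was lost with library totals, with no low-count filter and without vehicle tumor 1, vehicle tumor 3 or combination tumor 1. ERBB4, TYRO3 and IGF1R were receptors that fell, by 1.24, 0.99 and 0.61 on the log2 scale. MET, the HGF receptor, measured 314, 303 and 316 CPM in vehicle tumors against 287, 343 and 338 CPM in combination tumors. Its groups overlapped and the change of 0.05 ± 0.09 was not called. KIT and RET, further lenvatinib targets, had 12 and 2 counts over the vehicle tumors and 6 and 3 over the combination tumors.

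VEGF and other angiogenic ligands split, with 7 of 17 higher, 6 lower and a median of 0.06. VEGFA, the main ligand of the VEGF receptors, was 87.6, 107 and 84.2 CPM in the vehicle tumors and 149.5, 119.7 and 117 CPM in the combination tumors. Every combination tumor was above every vehicle tumor, and the log2 fold change was 0.47 ± 0.14 (adjusted p = 0.0115), but the call was lost with library totals (adjusted p = 0.074), without vehicle tumor 3 and without combination tumor 1. Thrombospondin 1 (THBS1), an inhibitor of angiogenesis, stood at 335, 234 and 413 CPM with vehicle and 47.9, 51.8 and 53.4 CPM with the combination (-2.68 ± 0.25). PDGFA (-1.64), PDGFD (-1.29), PGF (-0.61) and the VEGF co-receptors NRP1 (-1.20) and NRP2 (-2.81) were lower too, PGF not without vehicle tumor 3, combination tumor 1 or combination tumor 3. ANGPTL4, an inhibitor of lipoprotein lipase, rose by 1.80 on the log2 scale. The VEGF receptors themselves were hardly read in this table: KDR had 1 and 4 counts and FLT1 12 and 18 over the vehicle and the combination tumors.

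FGFR-MAPK output fell almost as a block. Of 20 tested members 19 were lower and 0 higher, with a median log2 fold change of -2.08. The list was chosen as a known readout of the drug target. DUSP6, the phosphatase that inactivates ERK, measured 77.7, 92.9 and 71.1 CPM in vehicle tumors against 6.04, 9.71 and 15.8 CPM in combination tumors. The lowest vehicle tumor was above the highest combination tumor, which was tumor 3, and the log2 fold change was -2.93 ± 0.36. DUSP5, another ERK phosphatase, was 35.3, 32.02 and 30.4 CPM in the vehicle tumors and 0.506, 1.31 and 1.62 CPM in the combination tumors (-4.80 ± 0.67). Sprouty and SPRED genes, inhibitors of receptor and RAS signalling, moved together: SPRY1 stood at 25.6, 23.6 and 25.95 CPM with vehicle and 3.04, 3.21 and 4.44 CPM with the combination (-2.80 ± 0.25). SPRY4 measured 4.97, 5.02 and 5.04 CPM in vehicle tumors against 0.221, 0.345 and 0.61 CPM in combination tumors, a change of -3.62 ± 0.50, and SPRED1 changed by -2.27 ± 0.19. Combination tumor 3 held the highest value of its group for each of these 5 genes.

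The transcription factors downstream of ERK followed. ETV5 was 49.3, 49.4 and 52.6 CPM in the vehicle tumors and 4.43, 7.15 and 11.02 CPM in the combination tumors (-2.73 ± 0.27), and ETV4 stood at 17.95, 16.7 and 18.4 CPM with vehicle and 1.42, 2.69 and 3.68 CPM with the combination (-2.75 ± 0.43). MYC measured 48.3, 46.2 and 47.1 CPM in vehicle tumors against 11.7, 14.3 and 15.3 CPM in combination tumors, a log2 fold change of -1.77 ± 0.17 with narrow groups that did not overlap. Cyclin D1 (CCND1), which couples ERK to the cell cycle, was 58.9, 44.8 and 57.2 CPM in the vehicle tumors and 16.3, 15.9 and 18.8 CPM in the combination tumors (-1.66 ± 0.21). IER3 stood at 64.3, 57.7 and 70.1 CPM with vehicle and 3.19, 3.25 and 4.83 CPM with the combination, and at -4.08 ± 0.44 it was among the 15 largest falls named by size. LIF, EPHA2, SPRY2, SPRED2, PHLDA1, SPHK1, DUSP4, ETV1 and IL17RD were the other called members, with log2 fold changes from -4.75 (-5.70 without combination tumor 2) to -0.65. The ETV1 call was lost with no low-count filter and without combination tumor 1, and that of IL17RD without vehicle tumor 1, vehicle tumor 3, combination tumor 2 or combination tumor 3. FOSL1 alone was not called: it stood at 0.558 to 0.788 CPM over vehicle tumors and 0.345 to 0.601 CPM over combination tumors.

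**Figure D2:**
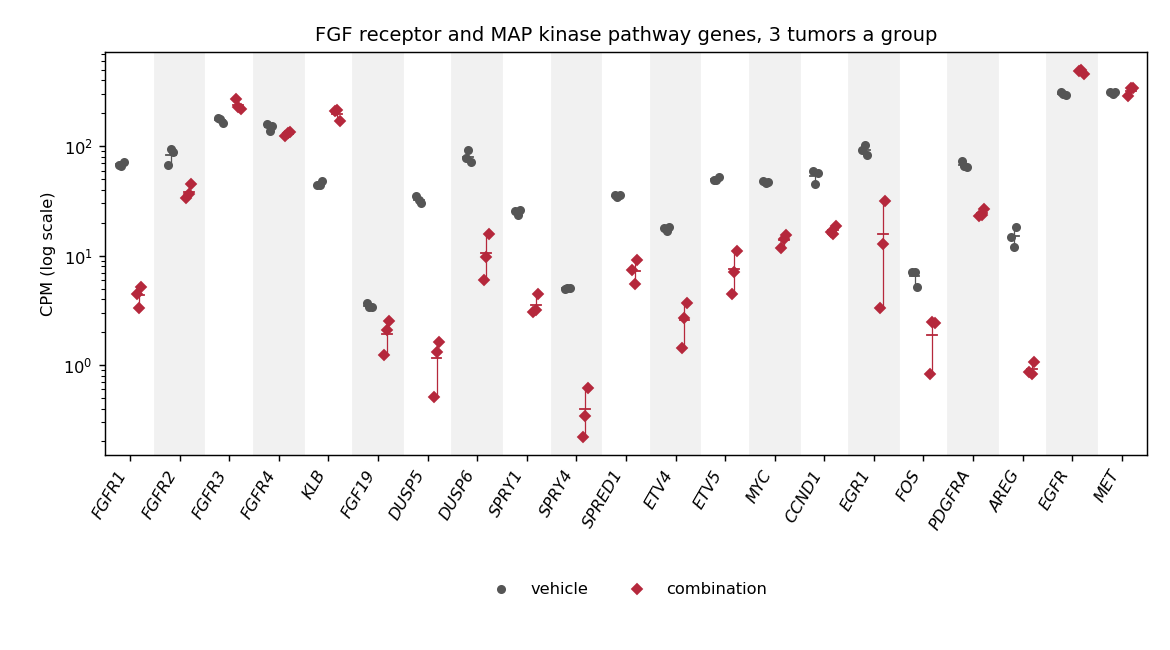
Level of FGF receptor, ERK output and receptor tyrosine kinase genes (x axis) in CPM on a log axis for each vehicle tumor (grey circles) and combination tumor (red diamonds); horizontal bars are means and vertical lines span the 3 tumors of a group. DUSP6 went from 71.1 to 92.9 CPM over vehicle tumors to 6.04 to 15.8 CPM over combination tumors, while MET overlapped between the groups.

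The kinases and adaptors of the RAS-ERK cascade moved much less, with 5 of 23 higher, 9 lower and a median of -0.06, close to that of all genes. All 5 rises were under 1 log2 unit, among them GAB1 (0.79), BRAF (0.62), EGFR and SOS1 (0.58). The largest fall was that of the adaptor SHC1 (-0.70), followed by KSR1, RPS6KA1 and NF1, a RAS inhibitor (-0.46). HRAS was not called. The output genes thus moved by more than 2 log2 units at the median, and no cascade gene that was called moved by as much as 1 log2 unit.

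Immediate early genes, which growth factors switch on within minutes, were mostly lower: 13 of 21 against 1 higher, median -0.82. EGR1 measured 91.8, 103 and 83.7 CPM in vehicle tumors against 3.32, 12.9 and 31.4 CPM in combination tumors. The combination tumors spread widely, lowest in tumor 1 and highest in tumor 3, and all lay below vehicle. The log2 fold change was -2.53 ± 0.67, and -3.53 without combination tumor 3. FOS was 7.07, 7.16 and 5.12 CPM in the vehicle tumors and 0.822, 2.45 and 2.41 CPM in the combination tumors (-1.76 ± 0.33), and CYR61, also a YAP target, stood at 23.7, 20.5 and 22.1 CPM with vehicle and 5.00, 4.80 and 4.72 CPM with the combination (-2.19 ± 0.15). NR4A1 and ATF3 fell by 2.82 and 1.24 on the log2 scale. DUSP1, a phosphatase for stress kinases, was the member that rose (0.85 ± 0.14). JUND, IER5 and ZFP36 were not called.

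Bile acid synthesis genes rose: 13 of 16 tested members were higher and 1 lower, with a median of 1.09. CYP7A1 measured 0.056, 0.127 and 0.079 CPM in vehicle tumors against 9.68, 9.88 and 4.29 CPM in combination tumors. In the vehicle tumors this came to 10 counts in all, near the floor, against 761 counts with the combination, and the log2 fold change was 6.43 ± 0.63, next to that of PPP1R1A the largest of those named by size. CYP8B1, which makes the cholic acid branch, was 0.279, 0.408 and 0.026 CPM in the vehicle tumors and 3.04, 2.35 and 1.83 CPM in the combination tumors (3.31 ± 0.59, and 3.97 without vehicle tumor 2). AKR1D1, the steroid reductase that follows CYP7A1, stood at 4.47, 2.67 and 3.49 CPM with vehicle and 114, 97.7 and 65.9 CPM with the combination (4.71 ± 0.47). The values of combination tumor 3 were the lowest of their group for all 3 genes. CYP27A1, of the acidic pathway, measured 82.7, 81.9 and 79.3 CPM in vehicle tumors against 241, 244 and 210.4 CPM in combination tumors (1.51 ± 0.18). SLC27A5 and AMACR, which activate and process the side chain, rose by 1.87 and 1.10. CYP7B1 was the member that fell (-0.45 ± 0.12), and BAAT and AKR1C4 were not called.

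Bile acid sensors and transporters followed with 12 of 16 higher, 3 lower and a median of 1.08. The bile acid receptor FXR (NR1H4) was 53.4, 50.8 and 56.5 CPM in the vehicle tumors and 109.9, 123 and 116 CPM in the combination tumors (1.12 ± 0.13). A pair of its known targets fell. SHP (NR0B2), a repressor of CYP7A1, stood at 29.7, 33.7 and 23.5 CPM with vehicle and 7.27, 14.4 and 15.4 CPM with the combination (-1.23 ± 0.31), and SLC51B, a subunit of the basolateral bile acid exporter, measured 5.03, 4.18 and 3.68 CPM in vehicle tumors against 0.569, 0.691 and 1.65 CPM in combination tumors (-2.10 ± 0.41, and -2.77 without combination tumor 3). ABCC4 was the other member that fell (-0.87). The canalicular bile salt pump ABCB11, another FXR target, rose from 0, 0.204 and 0.079 CPM to 3.70, 2.11 and 0.762 CPM. Combination tumor 3 was the lowest of its group, vehicle tumor 1 had no counts, and the fitted change of 4.44 ± 1.10 started from near the floor. It was 5.62 without vehicle tumor 2 and 3.82 without combination tumor 1. ABCG5 and ABCG8, which export sterols into bile, rose by 1.25 and 1.53, and the exporter ABCC3 by 1.70.

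Cytochromes P450 of drug and lipid oxidation rose in 16 of 28 tested members and fell in 1, CYP2B6 (-1.98 ± 0.42), with a median of 1.26. CYP3A7, the fetal liver form, was 12.5, 11.6 and 11.3 CPM in the vehicle tumors and 958, 1150.3 and 431 CPM in the combination tumors (6.16 ± 0.79). Its close relatives CYP3A4 (2.56), CYP3A5 (1.86) and CYP3A43 (3.05) were also higher, and reads shared among such near copies make each single value uncertain. CYP4F3, a leukotriene and fatty acid hydroxylase, went from a range of 3.91 to 7.11 CPM to one of 133 to 198 CPM. CYP4F12 went from 2.15 to 3.71 CPM to 44.3 to 80.95 CPM, both without overlap. CYP2E1 stayed under 1 CPM in all 6 tumors. Library totals and the fit of the 2 groups alone each called 2 members lower. Conjugating enzymes showed 12 of 28 higher and 4 lower, median 0.32. GSTA1 stood at 9.13, 6.80 and 7.07 CPM with vehicle and 516, 321 and 136 CPM with the combination (5.40 ± 0.72), with its near copy GSTA2 moving alongside (3.24). SULT2A1, a bile acid and steroid sulfotransferase, rose by 1.83. UGT2B11, GSTO1, MGST2 and GSTM3 fell. The lower members numbered 7 with library totals or the 2 groups alone and 2 without combination tumor 2.

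Plasma proteins gave the highest medians of all lists. Coagulation and complement genes were higher in 34 of 44 tested members and lower in 3 (C7, F3 and PROS1), with a median of 1.37, and the other plasma proteins were higher in 27 of 32 and lower in 2 (ITIH2 and LRG1), with a median of 1.38. Albumin (ALB) measured 36558, 35523 and 34105 CPM in vehicle tumors against 76599.5, 82419 and 71252 CPM in combination tumors (1.12 ± 0.17) and made up 6.85% to 7.71% of all counts with the combination against 3.62% to 3.80% with vehicle. Histidine-rich glycoprotein (HRG) was 3.94, 5.40 and 3.78 CPM in the vehicle tumors and 117, 129 and 93.9 CPM in the combination tumors (4.69 ± 0.32). Fetuin B (FETUB) rose from a range of 2.39 to 3.26 CPM to one of 56.2 to 109 CPM (5.04 ± 0.49). The combination tumors were above the vehicle tumors for each of these genes.

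All fibrinogen chains rose. FGB stood at 221, 238 and 231 CPM with vehicle and 3129, 2509 and 1856 CPM with the combination (3.44 ± 0.39), and FGA and FGG changed by 2.48 and 2.74. The classical complement protease C1S measured 16.7, 16.1 and 15.7 CPM in vehicle tumors against 470.2, 378 and 227 CPM in combination tumors (4.47 ± 0.53), and its partner C1R rose by 3.68 ± 0.32. No tumor of either group overlapped the other for these genes. Kininogen (KNG1), the precursor of bradykinin, changed by 3.56 ± 0.27. Prothrombin (F2) and factor V (F5) did not pass the test, at 0.23 ± 0.09 and -0.04 ± 0.11. The PROS1 call was lost without vehicle tumor 1, vehicle tumor 2 or combination tumor 1. Alpha-fetoprotein (AFP), an oncofetal plasma protein and tumor marker, was 10332, 9607 and 9272 CPM in the vehicle tumors and 22803, 22667 and 20172 CPM in the combination tumors, a rise of 1.17 ± 0.20.

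Apolipoproteins and lipoprotein assembly genes were higher in 15 of 24 members and lower in 3, median 0.78. APOC3, an inhibitor of triglyceride clearance, stood at 52.9, 50.3 and 43.1 CPM with vehicle and 1312, 1060.0 and 595 CPM with the combination (4.34 ± 0.42). Combination tumor 3 was again the lowest of its group. APOA5 (3.71), APOA4 (3.17) and APOA1 (2.19) rose, while APOB measured 27202, 24542 and 24998 CPM in vehicle tumors against 23047, 25641 and 26408 CPM in combination tumors and was not called. APOM and LIPG were among the lower members, but the LIPG call (adjusted p = 0.0484) was lost in 9 of 13 alternatives, DESeq2 and limma-voom among them. The lower count was 1 without vehicle tumor 1, combination tumor 1 or combination tumor 2.

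Among hepatocyte transcription factors and nuclear receptors, 19 of 32 were higher and 1, ONECUT2 (-0.90), lower. The median was 0.46. ONECUT1 was 21.7, 21.4 and 22.6 CPM in the vehicle tumors and 61.3, 71.05 and 58.9 CPM in the combination tumors (1.54 ± 0.11). HNF4A, the central hepatocyte factor, stood at 319, 281 and 299.9 CPM with vehicle and 475, 467 and 480.5 CPM with the combination (0.66 ± 0.09). PPARA, CREB3L3, RXRA and THRB changed by 1.64, 1.72, 1.17 and 1.20. FOXA1, FOXA2 and FOXA3 were not called, with log2 fold changes from -0.05 to 0.04. With library totals or the 2 groups alone 3 members were lower, and 2 without the low-count filter or without vehicle tumor 2.

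**Figure D3:**
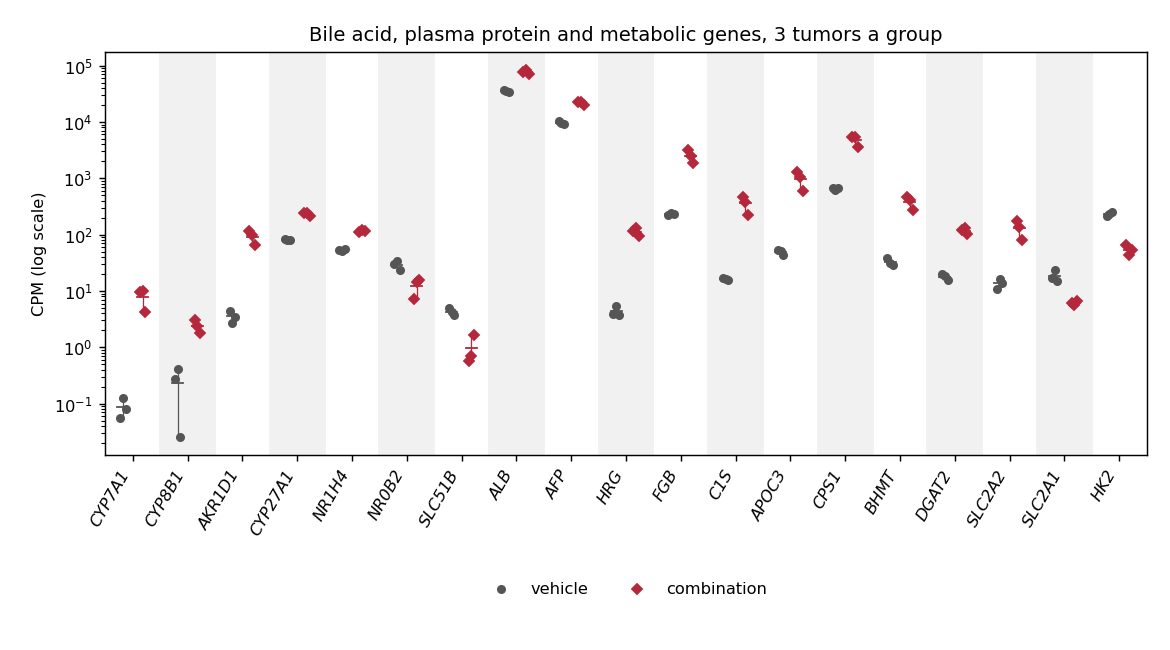
Level of bile acid, plasma protein and metabolic genes (x axis) in CPM on a log axis for each vehicle tumor (grey circles) and combination tumor (red diamonds); horizontal bars are means and vertical lines span the 3 tumors of a group. CYP7A1 went from 0.056 to 0.127 CPM over vehicle tumors to 4.29 to 9.88 CPM over combination tumors, and NR0B2, SLC51B, SLC2A1 and HK2 are the genes shown that fell.

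Urea cycle and amino acid breakdown genes were higher in 29 of 44 members and lower in 5 (GOT1, AMDHD1, ARG2, ALDH4A1 and TDO2), median 0.83. CPS1, the first enzyme of the urea cycle, measured 680.3, 622 and 679 CPM in vehicle tumors against 5442, 5449.9 and 3635 CPM in combination tumors (2.88 ± 0.28). Its activator enzyme NAGS rose by 3.25 ± 0.34 and the next step, OTC, by 2.67 ± 0.43. BHMT, which remethylates homocysteine, was 39.1, 31.5 and 29.3 CPM in the vehicle tumors and 472, 409.7 and 276 CPM in the combination tumors (3.54 ± 0.49). Every combination tumor was far above every vehicle tumor, with tumor 3 the lowest of its group. Arginase 1 (ARG1) was not called (0.17 ± 0.22), and GLDC and FAH differed by under 0.1 log2 unit.

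Fatty acid oxidation and ketone body genes showed 24 of 26 members higher and 0 lower, median 1.12. CPT1A, which carries fatty acids into mitochondria, stood at 28.6, 39.7 and 26.6 CPM with vehicle and 219, 204 and 120.1 CPM with the combination (2.52 ± 0.48). Its groups did not overlap. PDK4, a PPAR target in this list, stood at 3.04, 4.97 and 3.18 CPM with vehicle and 2.02, 2.18 and 1.70 CPM with the combination. Its groups did not overlap, but at -0.93 ± 0.37 it missed the threshold (adjusted p = 0.0552), and it was called lower in 4 alternatives, which were library totals, DESeq2, the 2 groups alone and the fit without H3B-6527 tumors. Fatty acid synthesis genes also rose, in 13 of 21 members against 2 lower (ELOVL6 and ME1), median 0.82. DGAT2, which completes triglyceride synthesis, measured 20.1, 18.5 and 15.6 CPM in vehicle tumors against 122, 131 and 101 CPM in combination tumors (2.71 ± 0.22). The carbohydrate sensor MLXIPL and the desaturase FADS1 rose by 1.40 and 0.94, whereas FASN and ACLY were not called.

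Glucose genes were divided. Glycolysis and glucose entry had 7 of 25 higher and 8 lower, median -0.05, and both directions included tissue forms of the same enzyme or transporter. HK2, the hexokinase of proliferating cells, was 212, 228 and 249 CPM in the vehicle tumors and 65.6, 43.8 and 53.7 CPM in the combination tumors (-2.08 ± 0.22). The glucose transporter SLC2A1 fell (-1.60 ± 0.33), whereas SLC2A2, the hepatocyte transporter, stood at 10.8, 16.5 and 13.9 CPM with vehicle and 174, 134 and 79.4 CPM with the combination (3.23 ± 0.58). PFKM, the muscle phosphofructokinase, fell by 1.13 and PFKL, the liver form, rose by 0.79. GAPDH and TPI1 were not called. Gluconeogenesis, glycogen and insulin response genes were higher in 11 of 22 and lower in 3, median 0.49. G6PC, which releases free glucose, rose from 1.90, 7.82 and 1.05 CPM to 52.9, 53.5 and 28.95 CPM (3.64 ± 0.74, and 4.93 without vehicle tumor 2). The insulin receptor substrate IRS1 changed by 1.73 ± 0.14. IGFBP3 (-3.40), FOXO1 (-1.45) and IRS2 (-1.34) were the members that fell.

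Cholesterol synthesis had 10 of 24 members higher and 4 lower, with a median of 0.14. LSS and TM7SF2 rose by 1.06 and 1.42. FDFT1, SC5D and ACAT2 were among the lower members, whose number was 1 without vehicle tumor 1, vehicle tumor 3 or combination tumor 1, and 2 without combination tumor 2.

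Proliferation genes fell. In G2 and mitosis 39 of 40 members were lower and 0 higher, median -1.06, and in S phase and replication 34 of 42 were lower and 0 higher, median -0.75. MKI67, the Ki-67 antigen, measured 506, 587 and 557 CPM in vehicle tumors against 230.4, 249 and 354 CPM in combination tumors (-0.99 ± 0.26). The mitotic checkpoint kinase BUB1B was 199, 181 and 213 CPM in the vehicle tumors and 64.3, 67.04 and 89.4 CPM in the combination tumors (-1.43 ± 0.17). RRM2, the ribonucleotide reductase subunit that limits dNTP supply, stood at 44.4, 39.2 and 46.9 CPM with vehicle and 10.6, 9.60 and 12.7 CPM with the combination (-1.98 ± 0.24). CDC25C was the mitotic member not called. The fall of MKI67, BUB1B and RRM2 was smallest in combination tumor 3. The S phase count was 22 without combination tumor 1.

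D-type cyclins and CDK inhibitors had 5 of 19 higher and 5 lower, median -0.03. The lower ones were CCND1, CCND3, CDK6, CDKN2A and CDKN2B. CDKN2B, an INK4 inhibitor of the CDKs, measured 24.1, 28.2 and 26.1 CPM in vehicle tumors against 3.16, 3.18 and 2.59 CPM in combination tumors (-3.14 ± 0.36). BTG1, CDKN1C, CDKN1B, CCNG2 and RBL2, which restrain the cycle, were higher, by 0.27 to 1.17. Only 2 members were higher with library totals, and 3 without vehicle tumor 1 or combination tumor 2. CDKN1A, the p53 target, was not called (-0.36 ± 0.34).

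Growth machinery fell with them. Ribosome assembly and RNA polymerase I genes were lower in 38 of 40 members and higher in 0, median -0.89. DDX21, an RNA helicase of the nucleolus, was 136, 115 and 140.2 CPM in the vehicle tumors and 35.4, 31.2 and 34.9 CPM in the combination tumors (-1.95 ± 0.13). NOP58, NOP2 and TSR1 fell by 1.05, 1.28 and 1.31 with no overlap between the groups. FBL and POLR1D were not called. Nucleotide synthesis genes were lower in 18 of 25 and higher in 1 (ADSSL1), median -0.77. The purine enzyme PPAT stood at 41.4, 39.4 and 44.4 CPM with vehicle and 17.5, 14.9 and 17.7 CPM with the combination (-1.32 ± 0.13), and the mitochondrial folate enzymes MTHFD2 and MTHFD1L fell by 1.73 and 1.82. The ADSSL1 call was lost with library totals and without vehicle tumor 1, vehicle tumor 3 or combination tumor 1.

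Targets of ATF4 and aminoacyl-tRNA synthetases were lower in 20 of 30 members and higher in 2, median -0.50. GDF15, a stress cytokine, measured 35.02, 34.8 and 36.3 CPM in vehicle tumors against 3.38, 4.11 and 4.67 CPM in combination tumors (-3.12 ± 0.40). The cystine transporter SLC7A11 fell by 2.10 and the tRNA synthetases TARS and GARS by 1.25 and 1.08. The 2 members that rose were NUPR1 (1.39) and phosphoserine phosphatase (PSPH, 0.87). Cytosolic heat shock chaperones fell in 11 of 21 members, median -0.51. HSPH1 was 63.2, 64.3 and 83.1 CPM in the vehicle tumors and 27.04, 21.6 and 25.2 CPM in the combination tumors (-1.51 ± 0.22), and HSPA4 and STIP1 fell by 0.87 and 0.76. HSPA1A was the member that rose (0.51 ± 0.17), a call lost with library totals and without vehicle tumor 1, vehicle tumor 3, combination tumor 1 or combination tumor 2. ER chaperones and unfolded protein response genes changed least, with 2 of 22 higher (EDEM1 and HERPUD1) and 3 lower (DNAJB11, ERN1 and CREB3L2), median -0.08. HSPA5, the main ER chaperone, was not called (-0.22 ± 0.13). The lower count was 7 with library totals, 5 with the 2 groups alone or without the H3B-6527 tumors, and 1 without vehicle tumor 3 or combination tumor 1.

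Hypoxia genes gave a mixed picture, with 14 of 33 higher, 5 lower and a median of 0.32. NDRG1 stood at 20.8, 66.4 and 16.2 CPM with vehicle and 344, 338 and 258 CPM with the combination (3.18 ± 0.47). All combination tumors were far above the highest vehicle tumor, which was tumor 2, and the log2 fold change was 4.08 without that tumor. PPP1R3C and BNIP3 rose by 2.55 and 1.05. LOX measured 1.98, 3.85 and 2.47 CPM in vehicle tumors against 0.285, 0.276 and 0.457 CPM in combination tumors (-2.99 ± 0.39), with no overlap, and SLC2A1, BHLHE41 and ERO1A were lower too. CA9, a HIF target chosen after its values were seen, was 2.07, 9.88 and 1.24 CPM in the vehicle tumors and 6.29, 4.42 and 4.60 CPM in the combination tumors. The groups overlapped, and vehicle tumor 2 was above all combination tumors. Without that tumor CA9 was called higher, with a log2 fold change of 1.63 (adjusted p = 0.031). The higher count was 9 without combination tumor 1.

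Interferon-stimulated genes were higher in 12 of 26 members and lower in 4, median 0.58. IFIT1 stood at 0.391, 0.611 and 0.473 CPM with vehicle and 3.35, 2.90 and 2.59 CPM with the combination (2.57 ± 0.28), and STAT2 and IRF7 rose by 1.05 and 0.87. ISG20 measured 4.44, 4.00 and 4.10 CPM in vehicle tumors against 1.55, 1.38 and 1.98 CPM in combination tumors (-1.34 ± 0.27), and IFITM2 and IFITM3 were lower too. Without vehicle tumor 3 or combination tumor 2 the higher members numbered 7, and the IFITM3 call was lost without vehicle tumor 2, vehicle tumor 3 or any 1 combination tumor. MHC class I presentation genes were higher in 7 of 14, median 0.39, by 0.31 to 0.90, and HLA-C was 16.6, 18.1 and 15.7 CPM in the vehicle tumors and 36.8, 32.99 and 24.7 CPM in the combination tumors. That count was 4 with library totals and without vehicle tumor 3, combination tumor 1 or combination tumor 2, and HLA genes are close copies whose reads can be split among them. Acute phase and IL6 signalling genes were higher in 11 of 19 members, median 0.97, and included the fibrinogens already given. Haptoglobin (HP) stood at 5.58, 4.13 and 4.44 CPM with vehicle and 101, 52.6 and 32.3 CPM with the combination (3.71 ± 0.57), and the IL6 receptor gene IL6R rose by 1.38. LBP, which binds bacterial lipopolysaccharide, rose from near the floor, 0.028, 0.051 and 0.026 CPM, to 1.36, 1.04 and 0.737 CPM (4.74 ± 0.96). SOCS1 was the member that fell, and the call was lost with no low-count filter and without vehicle tumor 1, vehicle tumor 3, combination tumor 1 or combination tumor 3.

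Developmental pathways showed some of the largest falls. Of 18 Notch genes 5 were higher and 7 lower, median -0.24. HEY1, a Notch target, measured 19.04, 21.6 and 18.2 CPM in vehicle tumors against 0.696, 0.276 and 0.737 CPM in combination tumors (-5.06 ± 0.49). LFNG, which modifies Notch receptors, was 26.2, 23.8 and 24.4 CPM in the vehicle tumors and 0.569, 0.656 and 0.61 CPM in the combination tumors (-5.34 ± 0.63). The ligand JAG1 changed by -2.42 ± 0.18 and NOTCH3 by -1.53 ± 0.25, whereas NOTCH1 rose (1.35 ± 0.21). The higher members numbered 3 with library totals and without vehicle tumor 1, vehicle tumor 3, combination tumor 1 or combination tumor 2. WNT targets were lower in 8 of 19 and higher in 4, median -0.55. LGR5 stood at 59.5, 56.2 and 69.3 CPM with vehicle and 11.1, 6.04 and 7.34 CPM with the combination (-2.92 ± 0.21), and the feedback genes DKK1, NKD1 and AXIN2 fell by 2.41, 2.65 and 1.32. Other WNT targets rose: RHBG, an ammonium transporter, by 3.63 ± 0.31 and glutamine synthetase (GLUL) by 0.88 ± 0.15. RNF43 and ZNRF3 were not called.

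YAP and TEAD targets were lower in 13 of 20 members and higher in 2 (AMOTL1 and ARHGEF17), median -0.89. CTGF measured 16.4, 14.7 and 18.3 CPM in vehicle tumors against 2.37, 4.53 and 2.69 CPM in combination tumors (-2.38 ± 0.25), and ANKRD1 and TGFB2 fell by 3.06 and 2.68. Epithelial-mesenchymal, adhesion and matrix genes were lower in 15 of 31 and higher in 7, median -0.30. Of the junction genes, E-cadherin (CDH1) was 285, 309 and 256 CPM in the vehicle tumors and 794, 718 and 656 CPM in the combination tumors (1.35 ± 0.21). Claudin 1 (CLDN1) stood at 146, 144 and 149 CPM with vehicle and 426, 476 and 413 CPM with the combination (1.58 ± 0.10). Claudin 3 (CLDN3) rose too (1.73), while claudin 2 (CLDN2) fell by 1.70. Integrins ITGA2 and ITGAV fell by 2.64 and 1.17, and vimentin (VIM) by 0.82. Keratins 8, 18 and 19, of which the last marks biliary cells, fell as well.

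Progenitor, biliary and oncofetal genes were divided, with 6 of 17 higher, 9 lower and a median of -0.50. PROM1 (CD133) measured 179.8, 177 and 201 CPM in vehicle tumors against 31.97, 32.9 and 40.9 CPM in combination tumors (-2.40 ± 0.29), and SOX9, SOX4, HMGA2 and LIN28B fell by 1.27, 1.64, 1.60 and 1.29. Glypican 3 (GPC3), a hepatoma marker, was 1469, 1646 and 1379.6 CPM in the vehicle tumors and 3212, 3546 and 2839 CPM in the combination tumors (1.09 ± 0.15), and AFP, PEG10, IGF2 and H19 were higher too. In the BCL2 family 3 of 15 were higher and 5 lower, median 0.10. The protective genes BCL2L1 and MCL1 fell by 0.98 and 0.67, as did BCL2L12 and the death-promoting BAX and BBC3. BIM (BCL2L11), BAD and BNIP3 rose by 0.53, 0.58 and 1.05. The BAD call was lost with library totals, with no low-count filter and without vehicle tumor 1, vehicle tumor 2, combination tumor 1 or combination tumor 2. The lower count was 2 without combination tumor 1 and 3 without vehicle tumor 3, combination tumor 2 or combination tumor 3.

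Iron and heme genes were higher in 9 of 26 members and lower in 4, median 0.23. Transferrin receptor 2 (TFR2), an iron sensor of hepatocytes, stood at 16.6, 15.01 and 10.4 CPM with vehicle and 174, 173 and 108 CPM with the combination (3.44 ± 0.31), and TMPRSS6, which holds back hepcidin, rose by 2.34. ID1, a target of BMP signalling, measured 2.71, 2.09 and 4.47 CPM in vehicle tumors against 0.032, 0.069 and 0.102 CPM in combination tumors. At -5.40 ± 0.43 this was a fall to near the floor in all combination tumors, and TFRC was lower too. BMP6 was called lower (adjusted p = 0.0388), but not with DESeq2, limma-voom, no low-count filter or in 5 of the 6 fits that left out 1 tumor. The higher count was 14 with the 2 groups alone, and the lower count 2 without vehicle tumor 1, vehicle tumor 3 or combination tumor 1. Solute carriers were higher in 12 of 27 and lower in 10, median 0.18. SLC38A4, the amino acid transporter of hepatocytes, was 20.02, 22.6 and 18.7 CPM in the vehicle tumors and 153, 176 and 148 CPM in the combination tumors (2.96 ± 0.17) and SLC22A7 rose by 2.83. The transporters SLC7A1, SLC38A1 and SLC1A5, which supply growing cells, fell by 2.14, 1.96 and 1.61.

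Outside the lists, the largest changes included genes with other roles. PPP1R1A, an inhibitor of protein phosphatase 1, had the largest fitted rise among genes with a mean log2 CPM of at least 1 and groups that did not overlap: 0.056, 0.051 and 0.026 CPM with vehicle against 6.07, 4.97 and 2.34 CPM with the combination (6.54 ± 0.65), with 5 counts over the vehicle tumors. ENHO, which encodes the liver hormone adropin, rose from a range of 0.255 to 0.335 CPM to one of 3.99 to 8.74 CPM (4.48 ± 0.35), and the complement factor H relative CFHR4 changed by 4.65 ± 0.46. RASA4B, a RAS GTPase activator with near-identical copies, stood at 0, 0.127 and 1.50 CPM with vehicle and 19.6, 11.8 and 11.6 CPM with the combination (4.70 ± 1.07). Vehicle tumor 3 was above the other two, the change was 7.68 without it, and limma-voom gave an adjusted p of 0.0539. MYH4, a skeletal muscle myosin, stood at 0.223, 0.357 and 0.236 CPM with vehicle and 9.71, 7.53 and 4.27 CPM with the combination (4.69 ± 0.67). The muscle genes MYH1 and MB had 79 and 3 counts over all 12 libraries, and CKM was lower, with means of 1.59 and 0.798 CPM. MMRN1 had the largest fall by the same measure. This matrix glycoprotein of platelets and endothelium measured 13.3, 15.5 and 13.9 CPM in vehicle tumors against 0.032, 0.104 and 0.203 CPM in combination tumors (-6.85 ± 0.55, and -7.67 without combination tumor 3). UBASH3B, a tyrosine phosphatase, changed by -5.44 ± 0.43, and the integrin gene ITGA10 and the amino acid transporter SLC6A14 by -4.47 and -4.05.

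The single-agent groups were then set beside the combination. Against H3B-6527 alone, 2 genes were higher (0.0126% of those tested) and 0 lower with edgeR. At an unadjusted p under 0.05 there were 803 and 689, DESeq2 called 81 and 17 and limma-voom 3 and 0. The H3B-6527 tumors were the most variable group, whose biological coefficient of variation was 21.6%, compared with 11.1% in the combination and 8.16% in the vehicle group. AMDHD1, a histidine breakdown enzyme, stood at 40.3, 45.99 and 42.8 CPM with vehicle, 12.7, 14.4 and 16.00 CPM with H3B-6527, 49.3, 52.5 and 50.96 CPM with lenvatinib and 23.9, 27.01 and 32.2 CPM with the combination. The combination level lay between those of vehicle and H3B-6527 with no overlap, 0.95 ± 0.12 log2 units above H3B-6527 (adjusted p = 0.0127). JAML, an adhesion molecule, was at 13.1, 10.6 and 11.3 CPM with H3B-6527 and 23.3, 20.3 and 21.00 CPM with the combination, a difference of 0.88 ± 0.10 (adjusted p = 0.0107), and did not pass against vehicle (adjusted p = 0.0569). The higher count against H3B-6527 was 16 without H3B-6527 tumor 3, 7 and 4 without tumors 2 and 1, and 0 and 1 without combination tumors 3 and 2.

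For the ERK output genes the mean combination level lay between those of vehicle and H3B-6527 in 16 of 20 members, all but ETV4, IL17RD, SPHK1 and FOSL1. The share of all genes placed this way was not computed, so the count describes this list alone. DUSP6 was 2.70, 5.07 and 7.62 CPM with H3B-6527, 61.97, 97.9 and 92.9 CPM with lenvatinib and, as above, 6.04 to 15.8 CPM with the combination. The combination and H3B-6527 tumors overlapped, and their difference of 1.08 ± 0.38 was not called (adjusted p = 0.428). MYC was 5.27, 7.13 and 8.38 CPM with H3B-6527 and higher in every combination tumor, but the difference of 1.01 ± 0.17 was not called (adjusted p = 0.145). EGR1 was 2.08, 2.63 and 7.50 CPM with H3B-6527, and its difference of 2.05 ± 0.73 was not called either. Over the 20 list members the median difference from H3B-6527 was 0.64 with 0 called. The median of all genes in that comparison was not computed either. Neither equality nor a weaker response is shown by these tests. Their p-values were adjusted over all genes tested, and the SEs of these genes ran from 0.17 (MYC) to 0.73 log2 units (EGR1). CYP7A1 was 15.4, 12.7 and 4.65 CPM with H3B-6527 and 0.11, 0.096 and 0.051 CPM with lenvatinib, and the combination differed from H3B-6527 by -0.48 ± 0.38 (adjusted p = 0.732).

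Against lenvatinib alone, 3020 genes (19.1%) were higher and 3309 (20.9%) lower, and 18 of the 20 ERK output genes were lower. PRG4 (lubricin) was 100.00, 101 and 103 CPM in the vehicle tumors and 354, 380.3 and 441 CPM in the combination tumors, and was 117, 111 and 122 CPM with lenvatinib and 388, 413 and 456 CPM with H3B-6527. The combination was 1.75 ± 0.10 log2 units above lenvatinib (adjusted p = 1.38e-06). GRK5, a kinase of G protein-coupled receptors, was 24.3, 23.1 and 25.6 CPM with vehicle, 16.7, 20.9 and 23.95 CPM with lenvatinib and 3.92, 3.42 and 3.68 CPM with the combination. Its difference from lenvatinib was -2.48 ± 0.15 (adjusted p = 2.58e-06). Its H3B-6527 tumors, at 2.75, 3.39 and 4.06 CPM, overlapped those of the combination. LRP11, DPYD, TMC7, EML6, RTN4RL2 and the protease ADAMTS9 were the other genes with the smallest p against lenvatinib, from -2.54 to 2.02 log2 units.

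The hypoxia-related genes VEGFA, CA9 and NDRG1 differed from each other in the order of the groups. VEGFA was 72.5, 80.3 and 79.2 CPM with H3B-6527, below vehicle, and 128, 160.5 and 182 CPM with lenvatinib, above it, while the combination tumors lay at 149.5, 119.7 and 117 CPM. The combination was 0.73 ± 0.14 from H3B-6527 (adjusted p = 0.191) and -0.29 ± 0.14 from lenvatinib (adjusted p = 0.111), neither called. CA9 was 0.386, 0.271 and 1.55 CPM with H3B-6527 and 9.95, 11.8 and 23.7 CPM with lenvatinib, and the combination tumors lay between the groups without overlap. Its difference from H3B-6527 of 2.95 ± 0.86 was not called (adjusted p = 0.369), nor was that from lenvatinib. NDRG1 was 258, 191 and 167 CPM with H3B-6527 and 129.9, 131 and 189 CPM with lenvatinib, below combination tumors 1 and 2 throughout. Over the 33 hypoxia genes the median difference from H3B-6527 was 0.49, with 0 called, and the median of all genes in that comparison was not computed. From lenvatinib the median difference was -0.29, with 6 higher and 7 lower. The counts against lenvatinib were close to the shares of all genes in that comparison, 19.1% higher and 20.9% lower.

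**Figure D4:**
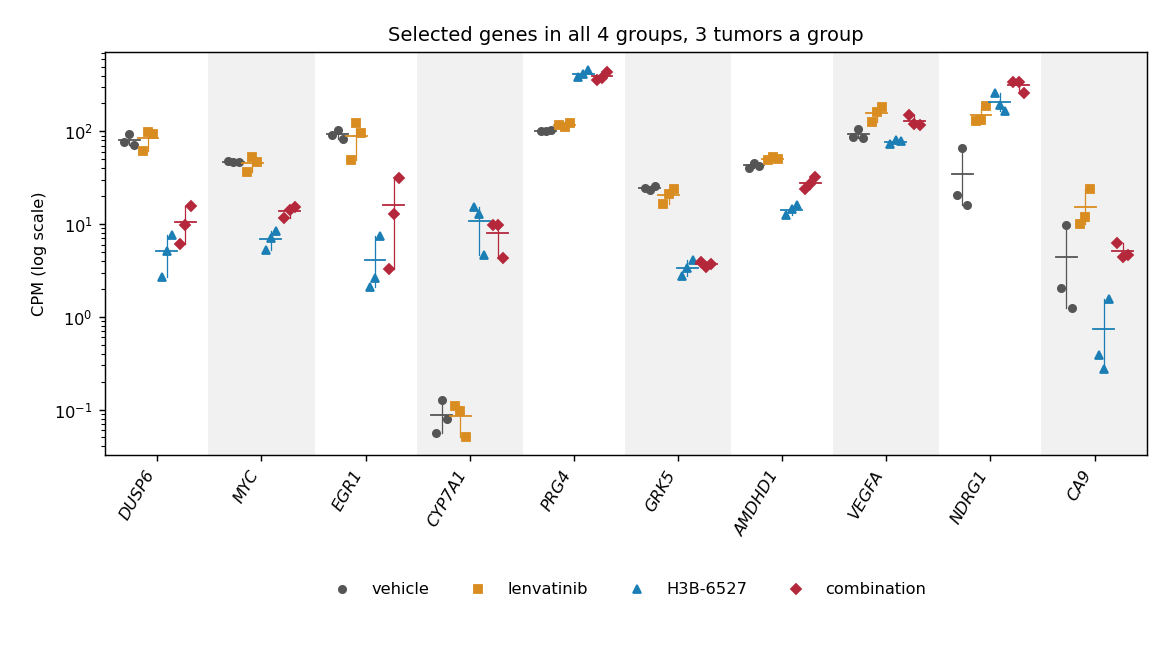
Level of 10 genes (x axis) in CPM on a log axis in each tumor of the 4 groups: vehicle (grey circles), lenvatinib (orange squares), H3B-6527 (blue triangles) and combination (red diamonds); horizontal bars are means and vertical lines span the 3 tumors of a group. DUSP6, MYC, EGR1, CYP7A1, PRG4 and GRK5 separate the groups with H3B-6527 from those without it, whereas CA9 levels with the combination lie between H3B-6527 and lenvatinib alone.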

How the data were processed

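RNA was sequenced from 12 Hep3B xenograft tumors, 3 per group, on 4 lanes. The authors deposited 1 table of estimated counts per gene symbol for all libraries, and 40.3% of its values were not whole numbers. The submitters' processing notes name kallisto, STAR, GRCh37 and GRCm38, but do not give their roles. Their versions, and any removal of mouse reads, are not given in the sources used here. Mouse is the labelled organism, while the gene symbols are human. Of 36292 symbols, 9157 had no counts in any library, and 0 columns lacked a sample.

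Estimated counts were rounded to whole numbers. All 12 libraries entered 1 fit in R 4.3.3 with edgeR 4.0.16 (TMM factors, edgeR's low-count filter over the 4 groups, robust quasi-likelihood F-test, 2-sided), with Benjamini-Hochberg adjustment over all genes tested and a threshold of 0.05. All adjusted p-values in the text come from this test unless another tool is named. SEs were derived from the log2 fold change and F. CPM values used TMM-scaled library sizes. Levels were not compared between genes except in the cell type marker sums. Estimated counts are not per length, so long transcripts weigh more in those sums. The procedure was checked on simulated counts with 200 genes changed between combination and vehicle and no other group difference. It called 72.73% of 2-fold changes, 91.84% of 4-fold changes and 0.05% of unchanged genes. In the tumors 50.1% of genes were called, so the simulation does not cover a change that wide. Alternatives were library totals in place of TMM, DESeq2 1.42.0, limma-voom (limma 3.58.1), no filter on low counts, a filter of at least 1 CPM in 3 libraries, fits of fewer groups and leaving out each tumor in turn. The labels tie each library to 1 mouse of a group and give no batch and no replicate number, so tumor numbers follow the order of the libraries.

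The members and the 40 gene lists were chosen with earlier results of these data known, and their counts are descriptions. Genes were named by a rule: the 15 largest rises and 15 largest falls (at least 1 log2 unit, mean log2 CPM of at least 1, groups not overlapping), up to 6 members with the smallest p per list plus those needed to account for counts of 5 or fewer, 24 genes fixed by name, and up to 8 genes with the smallest p against each single agent. List members named beyond these, such as CA9, HNF4A, BHMT, CDH1, JAML, PDK4 and genes given as not called, were chosen after their values were seen. Read-through, clone and antisense names were left out. Close paralogs and overlapping genes may share estimated counts. No sequences were used here. Some members that the rule names are not reported here.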

Additional observations from a re-analysis of the deposited data

How the results depend on the processing

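No paired analysis was possible because the labels give the tumors no replicate numbers shared between groups. Of 395 tested genes that the naming rule selects or the text names, 358 were called against vehicle, 324 of them in every one of 13 alternatives and another 4 in all 12 in which they were tested, 30 lost the call in some, and 0 changed direction while called. The counts against vehicle and against lenvatinib stayed within 1.5 times under every alternative run. For the combination against H3B-6527, edgeR called 2 genes higher and 0 lower. The higher count was 81 with DESeq2, 13 without the low-count filter and 1 with the 2 groups alone, and it ranged from 0 to 16 when single tumors were left out. The lower count was 17 with DESeq2. The cause of these differences was not tested. Genes near the floor of 3 counts carry folds that depend on few counts.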
